A study of Mus musculus with 2 samples.

Results

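Prostaglandin metabolism was described through 10 genes across the cells of the mouse uterus: Pla2g4a, Ptgs1, Ptgs2, Ptges, Ptgis, Ptgds, Hpgds, Hpgd, Ptger3 and Ptger4. They were chosen by name, and all 10 were found among the 32285 genes of both expression matrices. Transcript 3′ ends were counted in single cells, captured in droplets, from the dissociated uteri of female mice at 6 months of age. The control group was Prickle1 f/f and the conditional knockout group (cKO) was Prickle1 f/f Ltf-cre, so both carried floxed alleles of Prickle1 and the cKO also carried a Cre driven by the promoter of Ltf, the lactoferrin gene of uterine epithelium. Each group was 1 library made from 3 pooled mice. A separate genotype entry calls both samples C57BL/6J wild-type, which differs from the sample titles, and the titles were followed here. A single library per group allows no test between genotypes, and genotype, animals, dissociation and library cannot be told apart. The intervals below cover counting error only.

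Prostaglandins are lipid signals made in steps. The cytosolic phospholipase A2 encoded by Pla2g4a frees arachidonic acid from membranes, the cyclooxygenases encoded by Ptgs1 and Ptgs2 turn it into prostaglandin H, and terminal synthases make from that prostaglandin E (Ptges), prostacyclin (Ptgis) or prostaglandin D (Ptgds and Hpgds). Hpgd encodes the dehydrogenase that inactivates prostaglandins, and Ptger3 and Ptger4 encode receptors for prostaglandin E. In the mouse, cytosolic phospholipase A2 and the inducible cyclooxygenase are known for their part in ovulation, implantation and decidualization, and prostaglandins act on uterine muscle during labour.

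The reference sequence around the start of both cyclooxygenase genes and of Hpgd is shown because these 3 genes were distributed differently over cell classes and libraries. Each line is the sense strand, 5′ to 3′, from 250 bases before to 30 bases after the transcript start that RefSeq annotates on GRCm38.p6, with matches to 5 searched motifs in capitals. Pla2g4a and Ptgs2 are neighbours on chromosome 1 (149829618 to 149961290 and 150100031 to 150108227). Ptgs1 lies on chromosome 2 (36230426 to 36252272) and Hpgd on chromosome 8 (56294585 to 56321043), all by GENCODE.
Ptgs1, plus strand, chr2:36230176-36230455: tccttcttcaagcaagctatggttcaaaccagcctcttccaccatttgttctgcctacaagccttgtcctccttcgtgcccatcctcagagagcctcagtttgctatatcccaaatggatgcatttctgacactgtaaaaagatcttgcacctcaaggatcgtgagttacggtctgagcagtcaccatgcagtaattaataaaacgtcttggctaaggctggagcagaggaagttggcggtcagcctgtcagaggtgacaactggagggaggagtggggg
Ptgs2, plus strand, chr1:150099781-150100060: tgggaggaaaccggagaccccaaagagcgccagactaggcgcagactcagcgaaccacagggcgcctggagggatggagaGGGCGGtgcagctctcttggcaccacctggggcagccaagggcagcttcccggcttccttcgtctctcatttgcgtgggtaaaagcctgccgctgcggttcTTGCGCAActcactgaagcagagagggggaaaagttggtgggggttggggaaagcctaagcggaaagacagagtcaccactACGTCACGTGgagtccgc
Hpgd, plus strand, chr8:56294302-56294581: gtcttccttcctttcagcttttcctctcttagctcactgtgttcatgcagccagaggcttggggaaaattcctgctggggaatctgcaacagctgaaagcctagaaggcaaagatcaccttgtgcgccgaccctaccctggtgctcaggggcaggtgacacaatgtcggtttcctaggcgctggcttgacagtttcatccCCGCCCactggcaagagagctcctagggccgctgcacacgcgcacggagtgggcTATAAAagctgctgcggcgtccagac

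The motifs were searched on both strands: GGGCGG (the GC box), TATAAA (the letters of a TATA box), TGACGT (part of the cyclic AMP response element), CACGTG (an E-box) and TTGCGCAA (a palindrome known for the C/EBP factors). Counting from 1 at the 5′ end, the Ptgs2 window held GGGCGG at 81, TTGCGCAA at 182, TGACGT (read as ACGTCA) at 263 and CACGTG at 267, the last pair overlapping and lying after the annotated start, which is base 251. Of 32851 annotated windows of the same length, 0.18% held TTGCGCAA, 7.26% TGACGT and 6.79% CACGTG, and among the 10 windows of the genes described here only the Ptgs2 window held any of these 3. The Hpgd window held GGGCGG (read as CCGCCC) at 201 and TATAAA at 255, motifs that stood in 34.7% and 13.1% of all windows. The TATAAA match lies after the start that RefSeq annotates but before the GENCODE gene start given above (56294585), which is beyond the end of the window. No searched motif stood in the Ptgs1 window. These matches describe letters in a window and are not evidence of binding. Entries were found for 9 of the 10 genes, all but Ptgis, and Pla2g4a had 2.

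Cells were barcodes with at least 500 genes and at most 20% mitochondrial counts, which left 3653 control and 4950 cKO cells with medians of 4650 and 5944 unique molecular identifiers (UMIs, each standing for 1 captured transcript). The libraries held 45035801 and 57145553 UMIs in all, and 5 cell barcodes occurred in both. A cell was placed in a class if it had at least 1 UMI of a gate gene and that gene held at least 2/3 of the cell's UMIs over the 6 gate genes. Epcam gave 987 control and 118 cKO epithelial cells, Pdgfra 680 and 1593 stromal cells, Actg2 301 and 559 muscle cells, C1qa 258 and 132 macrophages, Msln 37 and 57 mesothelial cells and Cpa3 57 and 50 mast cells. A further 1303 and 2387 cells had no UMI of any gate gene, and 30 and 54 were mixed. Every class had all genes of its own marker list detected, summing to between 1125 and 19970 CPM. The mesothelial cells also carried stromal transcripts (10340 and 12400 CPM, counts per 1000000 UMIs of the class, summed over 6 genes), of which Dcn made 8963 and 10360 CPM. Their Col1a1 level was 127 and 284 CPM against 1241 and 2446 CPM in stromal cells, and Pdgfrb was at 3.48 and 3.67 CPM against 162 and 148 CPM. Prickle1 itself, read at its 3′ end, was counted with 14 and 4 UMIs in control and cKO epithelial cells (0.764 and 1.13 CPM). In stromal cells it was at 4.06 and 8.54 CPM and over all cells at 2.65 and 8.24 CPM, higher in the cKO library, while Ltf was at 1543 and 168 CPM in epithelial cells. Which exons are floxed is not given in the sources used here, so these counts check nothing about the deletion.

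The cKO epithelial cells differed from the control ones in more than number, which bears on every epithelial value below. Their B or plasma cell list summed to 1732 CPM against 5.95 in control, of which Jchain made 1712 CPM from 10 cells. Their muscle list summed to 509.5 against 63.3 CPM, of which Acta2 made 402 CPM while Myh11 was at 0.85 against 1.69 CPM. Their stromal list summed to 463 against 123 CPM, of which Dcn made 345 CPM with 42.9% of it in 1 cell. Their endothelial list summed to 103 against 5.57 CPM, and 1 cell held every Prox1 UMI. Their dendritic cell list summed to 142.5 against 32.9 CPM, of which Ccr7 made 129.5 CPM with 30.0% of it in 1 cell. Their lymphoid list summed to 30.9 against 3.49 CPM. The epithelial list summed to 9322 against 12330 CPM, but the keratin gene Krt8 was seen in only 65 of 118 cKO cells against 938 of 987 control cells, Cdh1 in 62 against 776 and Cldn4 in 45 against 868. The name epithelial thus stands for an Epcam gate, and 53 of the 118 cKO cells lacked Krt8. Median depth was 12616 UMIs in cKO and 6406 in control, and 1 cKO cell held 7.92% of the class's UMIs. The class was therefore also split by Krt8, a division chosen after the data were seen. The cKO cells without Krt8 held 6035 of the 6040 Jchain UMIs and 0 Ptgs1, Hpgd and Ptger3 UMIs, while those with Krt8 held 5 Jchain UMIs and most of the Acta2 and Dcn UMIs (1412 and 1048). Apart from the Krt8 split, the part of these differences in the results was not tested.

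Pla2g4a, which frees the substrate, was chiefly epithelial in control: 71.4% of its UMIs lay in epithelial cells, at 49.8 CPM (95% interval 46.7 to 53.2). In cKO this share was 25%, while the epithelial level was 92.1 CPM (82.4 to 103). The cKO level was thus 1.85 times that of control (1.62 to 2.10), although the class held far fewer cells, and 2.17 times (1.90 to 2.46) among cells with Krt8. The stromal level was 10.2 CPM in control against 20.8 in cKO, 2.03 times as high (1.64 to 2.55) but below 2-fold (log2 0.72) where any Pdgfra UMI sufficed, and in cKO they held 46.5% of all Pla2g4a UMIs. That stromal UMI pool was spread over 349 cells in cKO and 73 in control, with no cell above 4.17% of it. Macrophages (59.8 and 62.1 CPM) and mesothelial cells (47.0 and 47.7 CPM) had levels near the control epithelial one. Their ratios of 1.04 (0.785 to 1.37) and 1.01 (0.625 to 1.68) included 1.

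Ptgs1, the constitutive cyclooxygenase, was highest in mesothelial cells in both libraries. Mesothelial cells had 118 CPM in control (92.0 to 150) and 166 CPM in cKO (143 to 192), mast cells 89.6 and 68.2 CPM, and macrophages 40.0 and 38.1 CPM. Stromal cells were close to empty of it, with 9 UMIs in 680 control cells and 19 in 1593 cKO cells (0.961 and 0.654 CPM). The intervals of mesothelial and mast cells overlapped in control, so the lead of mesothelial cells is separated only in cKO. The epithelium was where the libraries differed most: 5.19 CPM in control (95 UMIs in 60 cells) and 43.6 CPM in cKO (154 UMIs in 30 cells), which is 8.42 times as high (6.48 to 10.99). No single epithelial cell held more than 16.2% of these UMIs, and outside cells the level was 9.31 and 4.81 CPM. Under all 10 alternative gates, filters and scalings the cKO level stayed at least 2-fold higher, with log2 ratios from 1.18 to 3.36. All 154 cKO UMIs lay in cells with Krt8, where the levels were 5.16 and 51.9 CPM, a ratio of 10.1 (7.74 to 13.2). The cells with Krt8 differed in depth, with a median of 6829 UMIs in 938 control cells and 24120 UMIs in 65 cKO cells. The lowest log2 ratio, with cells thinned to equal depth, rests on 11 and 3 UMIs. In cKO the 54 mixed cells held another 28.2% of all Ptgs1 UMIs, against 5.59% in the 30 mixed cells of control.

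Ptgs2, the inducible cyclooxygenase, was the most heavily counted of the 10 genes, with 16814 UMIs in control cells and 21648 in cKO cells. Macrophages led in both libraries, with 2282 CPM in control (2221 to 2345) and 3165 CPM in cKO (3074 to 3259). Mesothelial cells had 425 and 958 CPM, epithelial cells 395 and 554 CPM, stromal cells 130 and 158 CPM, mast cells 134 and 131 CPM and muscle cells 18.6 and 267 CPM. The transcript was also abundant outside cells, at 261 and 351 CPM in barcodes with at most 100 UMIs. Stromal and mast cells lay below that level in both libraries, and muscle cells did so too.

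Few cells carried most of the Ptgs2 transcripts. In macrophages 17 of 258 control cells and 11 of 132 cKO cells held 50% of the class's UMIs, and the highest single cells held 360 and 568 UMIs. In stromal cells the same share came from 8 of 680 and 20 of 1593 cells. Thinned to 1000 UMIs per cell, Ptgs2 was seen in 41.2% of 255 control macrophages (exact binomial interval 35.1 to 47.5%) and 54.6% of 130 cKO macrophages (45.7 to 63.4%), against 2.40% of 250 and 3.22% of 466 muscle cells. Without thinning these shares were 63.2% and 68.2% in macrophages and 3.65% and 5.01% in muscle cells, whose median depths were 1555 and 1628 UMIs against 8503.5 and 8780.5 in macrophages.

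**Figure D1:**
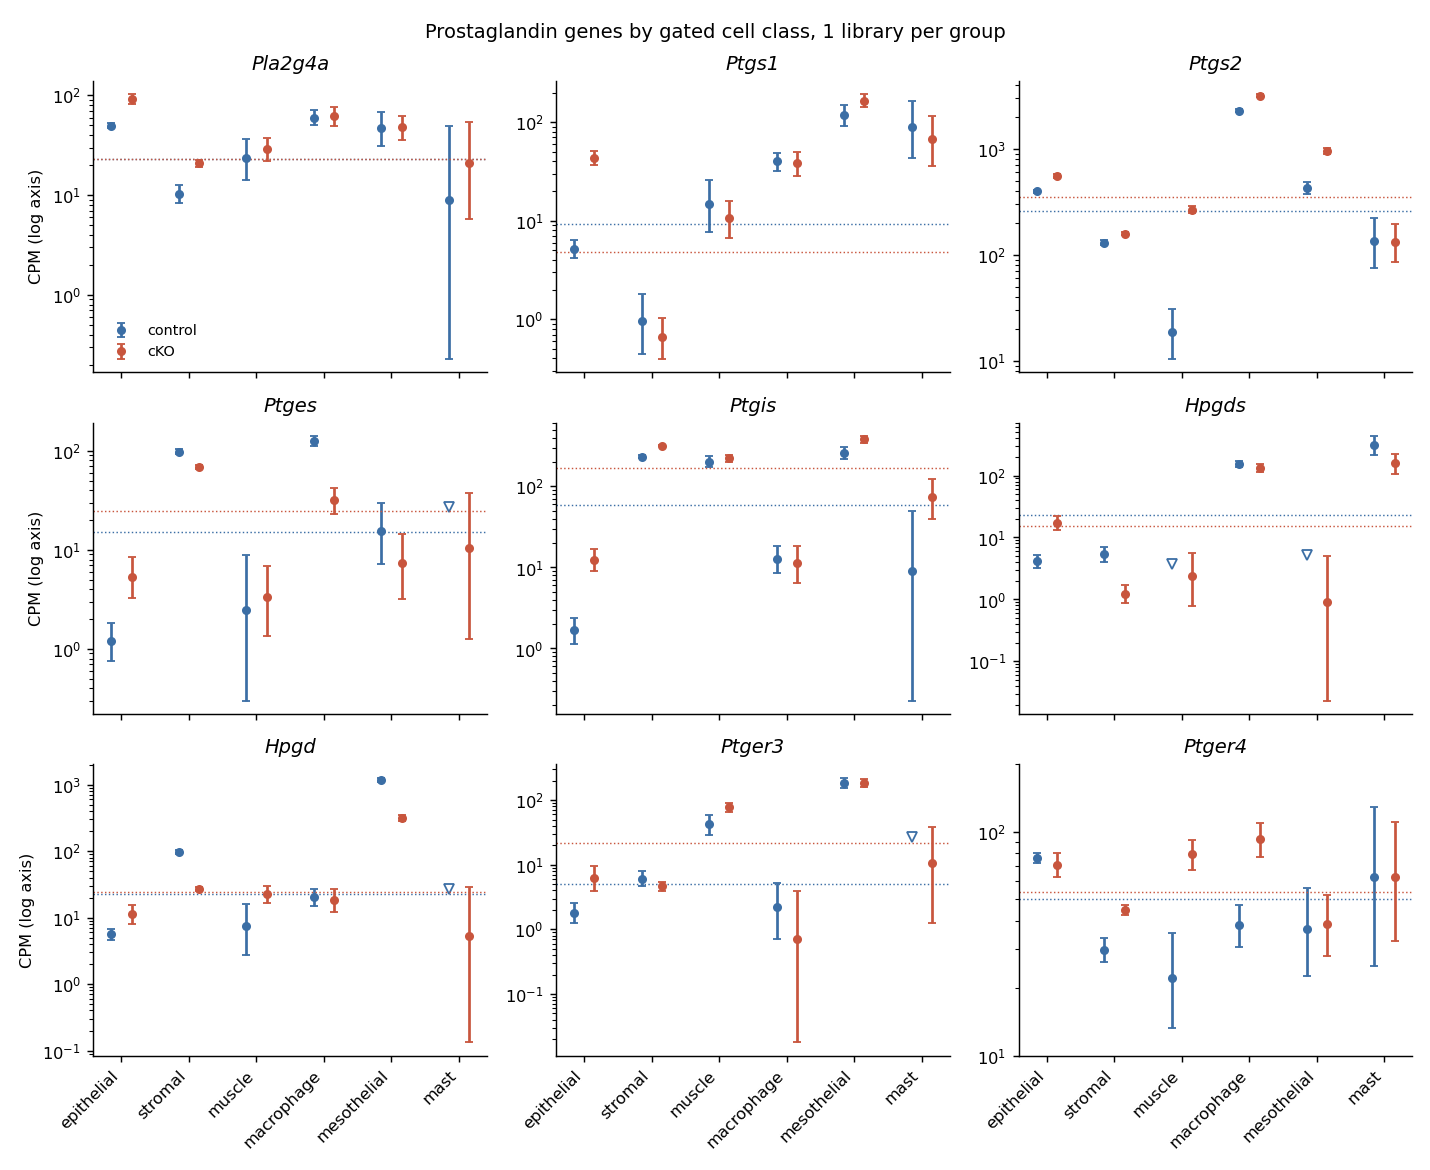
CPM on log axes of 9 of the 10 genes in 6 gated classes of the control (blue) and cKO (red) libraries; bars are exact Poisson 95% intervals, dotted lines the level in barcodes of at most 100 UMIs, and open triangles mark a count of 0 drawn at 3 counts. Macrophages lead for Ptgs2 in both libraries (2282 and 3165 CPM), mesothelial cells lead for Hpgd (1186 and 319 CPM), and Ptgds, with 11 and 9 UMIs in all, is not drawn.

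Between genotypes, Ptgs2 was modestly higher in cKO macrophages, epithelial cells and stromal cells when scaled by class totals. The cKO level was 1.39 times control in macrophages (1.33 to 1.44), 1.40 times in epithelial cells (1.33 to 1.47) and 1.22 times in stromal cells (1.14 to 1.30). Split by Krt8, the epithelial ratio was 1.63 (1.55 to 1.71) with it and 0.373 (0.218 to 0.632) without it, the latter from 36 and 27 UMIs. Over all cells together the ratio was 0.917 (0.899 to 0.936), with the classes at different shares of each library. With scaling factors estimated by the trimmed mean of M-values (TMM), the epithelial log2 ratio went from 0.49 to -0.05 and the macrophage one from 0.47 to 0.21. Mesothelial cells had 2.25 times the control level in cKO (1.96 to 2.60), but 1 of 37 control cells held 48.4% of the control UMIs and 1 of 57 cKO cells 21.9% of the cKO ones. The mesothelial difference dropped below 2-fold under 4 of 10 alternatives, to a log2 ratio of 0.12 where any Msln UMI was enough for the gate. The endothelial list summed to 27.9 CPM in the control and 273 CPM in the cKO mesothelial class, and the dendritic list to 146 and 56.9 CPM. Their part in the result was not tested.

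The muscle ratio of 14.4 (8.64 to 25.9) was carried by few cells. The control class held 15 Ptgs2 UMIs in 11 cells and the cKO class 557 UMIs in 28 cells, of which 1 cell held 50.4%. Without the highest cell of each library the levels were 13.8 and 133 CPM. Where any Actg2 UMI sufficed, control had 311 CPM and cKO 359 CPM, a log2 ratio of 0.21. The dendritic cell list summed to 370 CPM in the cKO muscle class and 240 CPM in the control one, chiefly from Ccr7 (15 and 3 cells), and its part in the Ptgs2 count was not tested. The epithelial list summed to 403 CPM in control muscle cells and 19.7 CPM in cKO ones, and the gate gene Actg2 was at 1838 and 864 CPM. Their part in the muscle values of Ptgs2, Hpgd, Ptger3 and Ptger4 was not tested.

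The Ptgs2 count is also read against genes that respond within minutes to tissue handling. Of 11 immediate early and heat shock genes, Fos, Egr1, Nr4a1 and Atf3 were at least 2-fold lower in cKO muscle (log2 ratios -1.22, -1.11, -1.38 and -1.0009), where Ptgs2 was higher. Fosb, Jun and Dusp1 were lower there by less (-0.49, -0.45 and -0.35). Hspa1a, Hspa1b and Junb were higher there (1.37, 0.91 and 0.37). In cKO epithelium Junb and Atf3 were lower (-1.49 and -1.45). So were Jun, Ier2, Egr1, Fos and Dusp1 (-0.96, -0.94, -0.63, -0.44 and -0.31). Hspa1a, Hspa1b and Nr4a1 were higher in that class (1.20, 0.82 and 0.20), and 1 cKO cell held 44.1% of the Hspa1a UMIs. In macrophages Hspa1a, Hspa1b and Ier2 were higher in cKO (1.98, 1.75 and 1.14), beside a Ptgs2 log2 ratio of 0.47, while Atf3 was lower (-1.01). There 1 cKO cell held 44.8% of the Hspa1a UMIs. By less than 2-fold, Nr4a1, Junb, Fosb, Dusp1 and Fos were higher (0.95, 0.58, 0.48, 0.39 and 0.33) and Egr1 and Jun lower (-0.59 and -0.39). In mesothelial cells, where Ptgs2 had a log2 ratio of 1.17, Fos, Egr1, Junb, Ier2 and Dusp1 were higher in cKO too (0.27, 0.17, 0.60, 0.50 and 0.49), while Hspa1a and Hspa1b were lower (-0.22 and -0.50). In stromal cells, beside 0.28 for Ptgs2, Fosb, Jun, Ier2 and Hspa1a were higher (0.60, 0.54, 0.31 and 0.99) and Atf3 and Dusp1 lower (-0.25 and -0.17). Smaller differences there were Hspa1b, Fos, Nr4a1 and Junb higher (0.22, 0.13, 0.11 and 0.097) and Egr1 lower (-0.06). Some of these genes thus moved with Ptgs2 and others against it in each of the 5 classes, and their part in the result was not tested.

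The balance of both cyclooxygenases set the classes apart. Since each UMI marks a transcript's 3′ end, gene length does not enter, although capture can differ between genes. Per Ptgs1 UMI there were 135 Ptgs2 UMIs in control and 241 in cKO stromal cells, 57.0 and 83.1 in macrophages, and 3.59 and 5.77 in mesothelial cells. Epithelial cells had 76.2 in control and 12.7 in cKO, the one of these 4 classes in which the balance moved towards Ptgs1. In mesothelial cells both genes were seen in 10 of 37 control and 18 of 57 cKO cells, and Ptgs1 without Ptgs2 in 11 and 18. In stromal cells the pair was seen together in 4 of 680 and 10 of 1593 cells.

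Ptges, the prostaglandin E synthase induced together with Ptgs2 in many cells, was a stromal and macrophage gene. Stromal cells held 70.4% of its UMIs in control and 90.1% in cKO, at 98.4 CPM (92.2 to 105) and 69.4 CPM (66.4 to 72.5). The cKO level was 0.705 times control (0.652 to 0.763). In macrophages the difference was larger: 126 CPM in control (112 to 142) and 31.7 CPM in cKO (23.2 to 42.5), which is 3.98-fold lower (2.90 to 5.57). The macrophage UMIs came from 26 control cells and 15 cKO cells, which were 10.1% and 11.4% of the class. Thinned to 1000 UMIs, 6.67% of 255 control macrophages (3.93 to 10.5%) and 3.08% of 130 cKO ones (0.845 to 7.69%) had a Ptges UMI, with overlapping intervals, so no difference in the share of cells was detectable at this depth. In each library 4 cells held at least 50% of the UMIs and no cell over 21.6%, and the level stayed over 2-fold lower in cKO under all 10 alternatives (log2 ratios -2.32 to -1.39). Other markers moved in the same class: the epithelial list summed to 118 CPM in control against 21.2 in cKO and the endothelial list 37.4 against 239 CPM, with all Prox1 UMIs of cKO in 1 cell. The dendritic list summed to 190 and 181 CPM, with Cd209a lower in cKO (61.6 and 9.88 CPM) and its other 4 genes higher, Ccr7 among them (117 and 152 CPM). Their part in the macrophage values of Ptges and Ptger4 was not tested. Epithelial cells had 22 and 19 UMIs, so their 4.48-fold higher cKO level (2.29 to 8.68) rests on a handful of cells, 1 of which held 47.4%. Macrophages and stromal cells thus changed places in the order: macrophages were highest in control and stromal cells in cKO, each with intervals that did not overlap.

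Ptgis, the prostacyclin synthase, marked the mesenchymal classes. Its mesothelial levels were 258 and 381 CPM (control and cKO), the stromal ones 233 and 317 CPM, and the muscle ones 202 and 222 CPM, against 12.8 and 11.3 CPM in macrophages. Stromal cells were 1.36 times higher in cKO (1.30 to 1.43) and mesothelial cells 1.48 times (1.22 to 1.80), while the muscle ratio of 1.10 (0.918 to 1.32) included 1. Over all cells the cKO library had 2.71 times the control level (2.60 to 2.82), and stromal cells were 32.2% of cKO cells against 18.6% of control cells. Outside cells it stood at 58.6 CPM (control) and 169 CPM (cKO). Epithelial cells had 1.69 and 12.5 CPM, and 1 cKO cell held 65.9% of the cKO UMIs. Among epithelial cells without a UMI of any other gate gene the counts were 18 and 5 UMIs and the log2 ratio was 0.57.

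**Figure D2:**
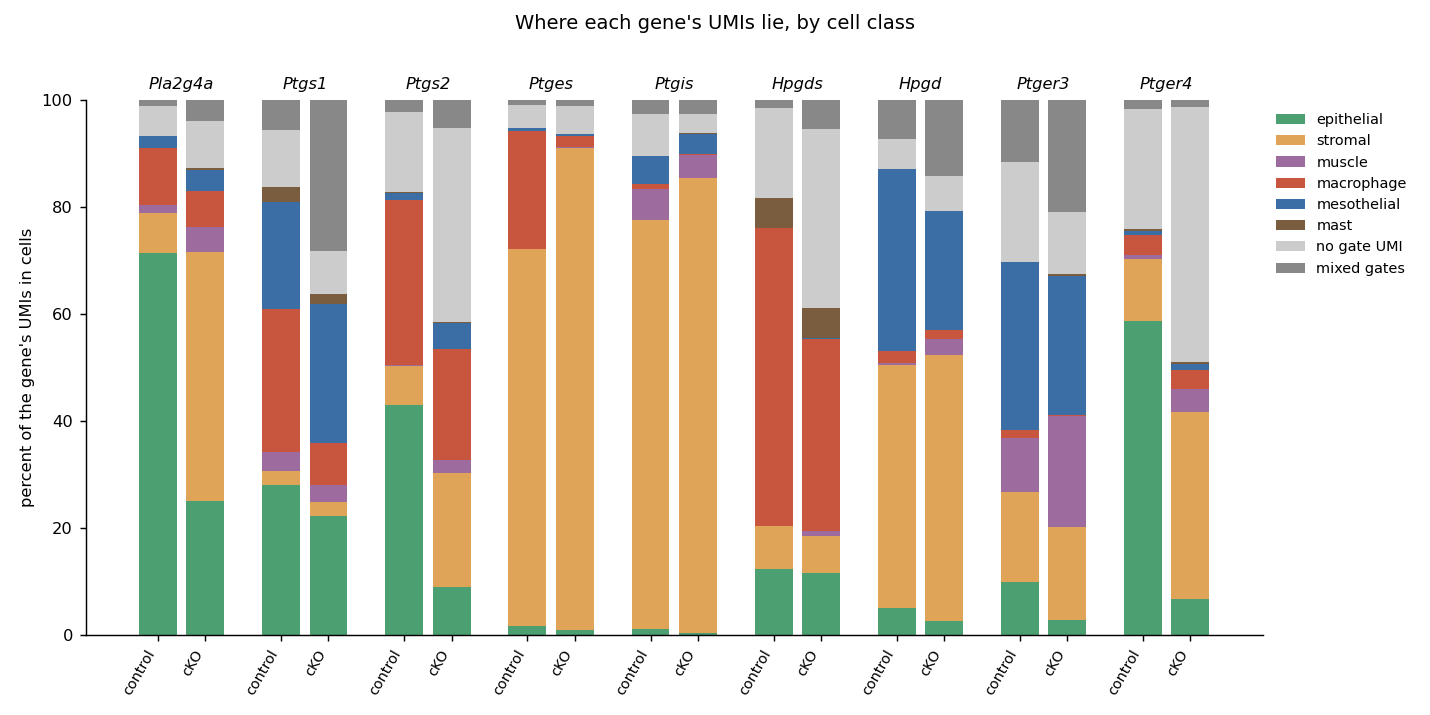
Stacked bars give, for each gene and library, the percent of its UMIs in cells that lay in each class, with cells of no gate UMI and of mixed gates in grey. Stromal cells hold most Ptges and Ptgis UMIs in both libraries, and the epithelial shares of Pla2g4a (71.4% and 25%), Ptgs2 (43.1% and 9.04%) and Ptger4 (58.7% and 6.75%) are smaller in cKO, where epithelial cells were 2.38% of cells against 27.0%.

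The prostaglandin D synthases divided sharply. Ptgds, the lipocalin-type enzyme, was nearly absent, with 11 UMIs in 3653 control cells and 9 in 4950 cKO cells, and was under 20 UMIs over both libraries in every class. Hpgds, the haematopoietic enzyme, was found in mast cells, at 314 CPM in control (218 to 436) and 157 CPM in cKO (106 to 225), and in macrophages, at 152 CPM (137 to 169) and 133 CPM (114 to 153). The mast cell level was 1.99-fold lower in cKO (1.19 to 3.36), just under the 2-fold limit, from 35 and 30 UMIs, and the log2 ratio was 0.062 where any Cpa3 UMI sufficed. The control mast class carried 1012 CPM of the epithelial list and the cKO one 62.9 CPM, and the part of this in the result was not tested. The macrophage ratio of 0.872 (0.726 to 1.04) included 1. Epithelial cells had 4.15 CPM (control) and 17.3 CPM (cKO), 4.17 times as high (2.93 to 5.91) from 76 UMIs in 36 cells and 61 UMIs in 21 cells, and 5.15 times (3.53 to 7.49) among cells with Krt8. Both values lay close to or under the levels outside cells (22.9 and 15.3 CPM). Stromal cells had 5.34 and 1.24 CPM, also under those levels, and 1 control cell held 54.0% of the control UMIs. That ratio was just under 2-fold (log2 -0.96) where any Pdgfra UMI sufficed. The macrophage list summed to 49.2 and 12.6 CPM in these stromal cells, and its part in the result was not tested.

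Hpgd, the enzyme of breakdown, was lower in cKO in both mesothelial and stromal cells. Mesothelial cells had 1186 CPM in control (1099 to 1279) and 319 CPM in cKO (286 to 354), 3.72-fold lower (3.26 to 4.24). Stromal cells had 97.3 CPM (91.1 to 104) and 26.8 CPM (24.95 to 28.7), 3.63-fold lower (3.30 to 4.002). The stromal UMIs came from 185 control cells and 290 cKO cells, with at most 7.35% in any 1 cell. The mesothelial UMIs came from 27 of 37 and 39 of 57 cells, with at most 19.4% in any 1 cell. Thinned to 1000 UMIs, Hpgd was seen in 52.8% of 36 control mesothelial cells (35.5 to 69.6%) and 25% of 56 cKO ones (14.4 to 38.4%). It was seen in 7.61% of 670 control stromal cells (5.72 to 9.89%) and 2.40% of 1582 cKO ones (1.71 to 3.28%), against 0.784% of 255 and 0.769% of 130 macrophages. Unthinned, these shares were 73.0% and 68.4% in mesothelial cells, 27.2% and 18.2% in stromal cells and 9.30% and 6.06% in macrophages. Both differences stayed over 2-fold under all 10 alternatives, with log2 ratios from -2.03 to -1.51 in mesothelial and from -1.998 to -1.79 in stromal cells. Markers also moved within these classes. In mesothelial cells the list of 5 mesothelial genes summed to 1125 CPM in control and 1721 CPM in cKO. Of its genes Upk3b (420 and 800 CPM), Lrrn4 (141 and 331 CPM) and Upk1b (174 and 214 CPM) were higher in cKO, while Wt1 (301 and 288 CPM), Bnc1 (88.8 and 88.03 CPM) and the gate gene Msln (453 and 384 CPM) were not. The endothelial list was higher in that class (27.9 and 273 CPM). In stromal cells Col1a1 was higher (1241 and 2446 CPM), and Lum (1704 and 1128 CPM) and the macrophage list (49.2 and 12.6 CPM) were lower. Their part in the Hpgd difference was not tested. Cells with no gate UMI also had less Hpgd in cKO, with 19.4 and 7.18 CPM (2.70-fold lower, 2.04 to 3.56). Both of these values lay under the levels outside cells, which are given below. In the same cells the epithelial list summed to 1392 and 76.0 CPM and the stromal list to 2100 and 1457 CPM. The part of these lists in the result was not tested.

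Macrophages did not share the Hpgd difference, with 20.2 and 18.3 CPM and a ratio of 0.907 (0.538 to 1.50). The stromal level in cKO and both macrophage levels were near those outside cells (22.9 and 24.1 CPM). The muscle and epithelial levels given next lay under them in both libraries. Muscle cells had 7.44 CPM in control from 6 UMIs and 22.6 CPM in cKO from 47 UMIs, a ratio of 3.03 (1.29 to 8.68). That direction turned where any Actg2 UMI sufficed (log2 ratio -1.16). Epithelial cells had 5.57 and 11.3 CPM, but 1 cell held 47.1% of the control UMIs and 1 cell 62.5% of the cKO ones, and the ratio of 2.04 fell below 2-fold under 5 of 10 alternatives.

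Ptger3, a receptor known for contraction in uterine muscle, was highest in mesothelial cells, followed by muscle. Mesothelial cells had 185 CPM in control (151 to 223) and 184 CPM in cKO (160 to 212), a ratio of 0.998 (0.785 to 1.27). Muscle cells had 42.1 CPM (29.2 to 58.9) and 76.8 CPM (65.4 to 89.7), 1.82 times as high in cKO (1.25 to 2.72), with no cell above 8.82% of the UMIs. The cKO muscle class also carried more of the stromal list (2598 against 1454 CPM), whose part in the result was not tested. Stromal cells had 6.08 and 4.62 CPM of Ptger3. Epithelial cells held 33 and 22 UMIs, of which 1 cell held 60.6% in control and 1 cell 45.5% in cKO, so that their ratio of 3.46 (1.92 to 6.12) rests on few cells.

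Ptger4, a receptor coupled to cyclic AMP, had at least 20 UMIs over both libraries in every class but mast cells. Epithelial cells led in control with 76.4 CPM (72.5 to 80.5) and had 71.1 CPM in cKO (62.6 to 80.5), a ratio of 0.931 (0.81 to 1.06). Stromal cells had 29.7 and 44.7 CPM, 1.51 times as high in cKO (1.32 to 1.72), and macrophages 38.3 and 92.4 CPM, 2.42 times (1.83 to 3.21). The macrophage UMIs came from 44 control and 39 cKO cells, and the log2 ratio ranged from 1.00 to 1.60 over the alternatives, the lowest of them just under 2-fold, with at least 2 C1qa UMIs. Muscle cells had 18 and 165 UMIs (22.3 and 79.2 CPM, a ratio of 3.55, 2.18 to 6.14), which dropped below 2-fold where any Actg2 UMI sufficed (a log2 ratio of 0.41) and, narrowly, as a mean over cells (0.99). The dendritic list summed to 240 and 370 CPM in these muscle cells, with Ccr7 in 3 control and 15 cKO cells and 0 and 45 UMIs of Xcr1, and its part in the result was not tested. In both libraries every pair of neighbouring classes in the order of Ptger4 levels had overlapping intervals.

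**Figure D3:**
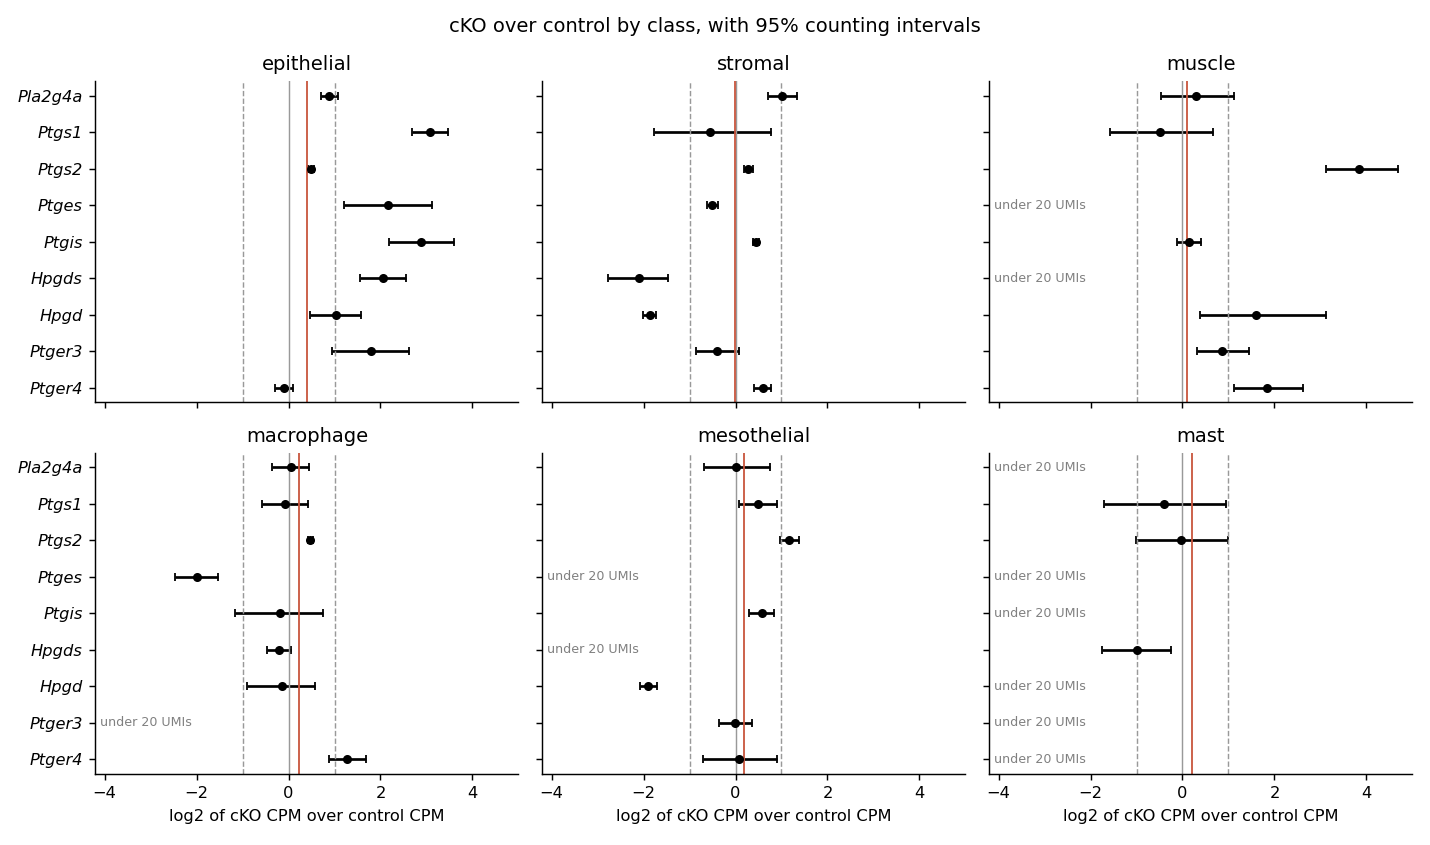
Log2 ratio of cKO to control CPM with exact 95% counting intervals for each gene with at least 20 UMIs over both libraries in a class; dashed lines mark 2-fold, and the red line is the median of all features of that class. Hpgd lies below -1 in stromal and mesothelial cells (-1.86 and -1.89), and Ptges does so in macrophages (-1.99).

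The remaining pairs of gene and class held few UMIs. Ptges had 2 and 7 UMIs (control and cKO) in muscle cells, 9 and 8 in mesothelial cells and 0 and 2 in mast cells. Hpgds had 0 and 5 UMIs in muscle and 0 and 1 in mesothelial cells. In mast cells Pla2g4a had 1 and 4 UMIs, Ptgis 1 and 14, Hpgd 0 and 1, Ptger3 0 and 2 and Ptger4 7 and 12, so mast cells were informative for Hpgds and both cyclooxygenases only. Ptger3 had 5 and 1 UMIs in macrophages. Ptgds had 6 and 7 UMIs in epithelial cells, 2 and 0 in stromal, 1 and 1 in muscle, 0 and 1 in mesothelial cells and 0 in macrophages and mast cells of both libraries. Muscle cells had 23.6 and 28.8 CPM of Pla2g4a and 14.9 and 10.6 CPM of Ptgs1, and mesothelial cells 36.6 and 38.5 CPM of Ptger4, each with a ratio whose interval included 1.

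Counts past 2-fold were read against all genes with at least 20 UMIs in the same class. In epithelial cells 9 of the 10 genes could be compared: 6 were at least 2-fold higher in cKO (Ptgs1, Ptges, Ptgis, Hpgds, Hpgd and Ptger3) beside 25.8% of all genes, and 0 were lower beside 9.62%. Their median log2 ratio was 1.79 beside 0.40 for all 12922 genes. The count is of an Epcam gate whose cells differ as described, and several of these genes rest on 1 cell. In stromal cells 9 could be compared, 1 was higher (Pla2g4a) beside 5.96% and 2 were lower (Hpgds and Hpgd) beside 6.99%. In muscle cells 7 could be compared, 3 were higher (Ptgs2, Hpgd and Ptger4) beside 9.16% and 0 lower beside 4.31%. In macrophages 8 could be compared, 1 was higher (Ptger4) beside 11.8% and 1 lower (Ptges) beside 4.1%. In mesothelial cells 7 could be compared, 1 was higher (Ptgs2) beside 9.69% and 1 lower (Hpgd) beside 2.56%. In mast cells only Ptgs1, Ptgs2 and Hpgds could be compared, with 0 higher beside 15.4% and 0 lower beside 4.87%.

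The background itself depended on scaling. Of all genes past 2-fold, 72.8% were higher in cKO epithelium under class totals and 41.2% under TMM factors. The same split was 74.1% and 51.3% in macrophages and 79.1% and 65.3% in mesothelial cells. The TMM factors shifted log2 ratios by -0.54 in epithelial cells, -0.26 in macrophages and -0.13 in both mesothelial and mast cells. Relative to that shift, Ptgs1 in epithelium kept a log2 ratio of 2.54.

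Of 34 other genes of the pathway found in the files, from a list fixed by name, 24 could be compared in epithelial cells, with 6 higher and 6 lower in cKO and a median log2 ratio of 0.40, the same as all genes to 2 decimals. Of all genes of that class 25.8% were higher and 9.62% lower. The largest difference was Akr1c18, which encodes an aldo-keto reductase that acts on progesterone and prostaglandins: 1.36 CPM (control) and 29.8 CPM (cKO), 21.8 times as high (14.0 to 35.2). Mgll, the monoacylglycerol lipase, was 3.56 times as high (2.92 to 4.33) and Ptgr1, a prostaglandin reductase, 3.26 times (2.46 to 4.30). Pla2g2e, a secreted phospholipase, was 8.22-fold lower (4.95 to 14.8), Alox5ap, which serves leukotriene synthesis, 3.96-fold lower (2.69 to 6.06) and Cbr2, a carbonyl reductase, 2.79-fold lower (2.56 to 3.05), from 447 to 160 CPM.

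In stromal cells 25 of the 34 could be compared, with 1 higher (5.96% of all genes) and 3 lower (6.99%). The prostacyclin receptor gene Ptgir had 37.9 CPM (control) and 18.2 CPM (cKO), 2.09-fold lower (1.82 to 2.39), where the synthase gene Ptgis was higher. Mgll was 2.44-fold lower (1.40 to 4.21) from 26 and 33 UMIs, in the opposite direction to epithelium. In macrophages 16 could be compared, with 0 higher (11.8% of all genes) and 3 lower (4.1%): Pla2g2d, a secreted phospholipase, by 3.94-fold (2.50 to 6.49), and the aldo-keto reductase genes Akr1b3 by 2.92-fold (2.40 to 3.58) and Akr1b8 by 2.36-fold (1.70 to 3.34). Muscle cells had 1 of 14 higher (9.16% of all genes) and 3 lower (4.31%), among them Akr1b8 (2.23-fold, 1.25 to 3.94). Mesothelial cells had 2 of 9 higher (9.69%) and 0 lower (2.56%), and mast cells 0 of 4 in either direction (15.4% and 4.87%).

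Within the stromal class, cells with an Il6 UMI were compared with those without, since Il6 marks inflammatory fibroblasts that often carry Ptgs2. There were 141 such cells in control and 485 in cKO. Ptgs2 was 246 CPM with and 86.4 CPM without Il6 in control, 2.85 times as high (2.54 to 3.20), and 356 and 61.7 CPM in cKO, 5.76 times (5.39 to 6.16). The chemokine gene Cxcl5 followed the same split, by 7.38 times (6.90 to 7.89) and 8.26 times (7.92 to 8.61). Ptges did not: it was 160 CPM with and 75.5 CPM without Il6 in control (2.12 times, 1.86 to 2.42), but 58.5 and 74.6 CPM in cKO (0.784 times, 0.709 to 0.865). The cells without Il6 thus had nearly the same Ptges level in both libraries, and the lower stromal level in cKO lay in the cells with Il6. Hpgd was lower in cKO on both sides of the split, at 75.7 (control) and 24.9 CPM (cKO) with Il6, and at 105 and 27.7 CPM without. The split was made after earlier results of these data were known. Cells with Il6 were deeper (medians of 18147 against 11355 UMIs in control and 17424 against 15352 in cKO), and 1 control cell held 25.9% of the Ptgs2 UMIs of its part.

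**Figure D4:**
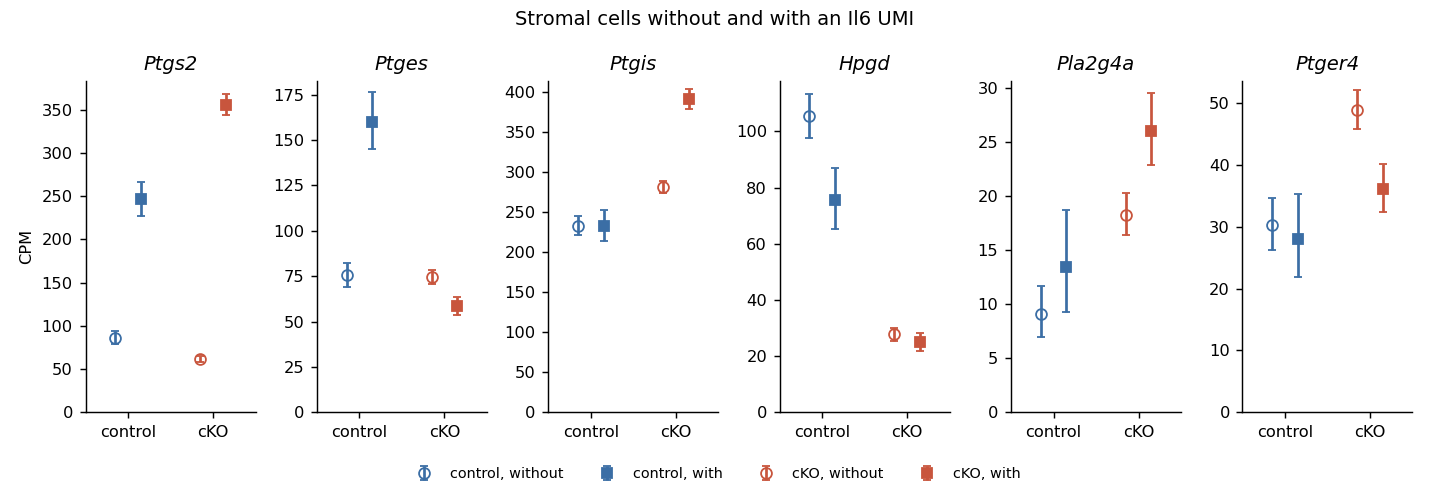
CPM in stromal cells without (open circles) and with (filled squares) an Il6 UMI, for 6 genes in control (blue) and cKO (red), with exact Poisson 95% intervals. Ptgs2 is higher with Il6 in both libraries, Ptges only in control (160 against 75.5 CPM), and Hpgd is lower in cKO on both sides of the split.

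Another split of stromal cells, by a Ptgs2 UMI, was chosen after the data were seen. Hpgd was 2.33 times as high in control stromal cells with Ptgs2 as in those without (2.03 to 2.68) and 1.10 times in cKO (0.939 to 1.28). Pla2g4a was higher with Ptgs2 in both libraries, by 1.71 times (1.05 to 2.70) and 1.80 times (1.52 to 2.12). Deeper cells are likelier to show any gene, and these ratios are of CPM.

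Much Ptgs2 and Ptger4 lay in cells without a gate UMI, which held 15.02% of Ptgs2 UMIs in control and 36.3% in cKO, and 22.3% and 47.8% of Ptger4 UMIs. These cells were divided by single marker genes chosen after the data were seen, and the divisions can overlap. Cells with Lyz2, a gene of myeloid cells, numbered 64 and 60 and had 2415 CPM of Ptgs2 in control and 6158 CPM in cKO, carrying 50.6% and 57.2% of the Ptgs2 UMIs of cells without a gate UMI. Over all cells without a gate UMI, the neutrophil list summed to 69.0 and 2.18 CPM and the macrophage list to 116 and 41.7 CPM. The cells with Lyz2 may thus differ in kind between the libraries, which was not tested. Cells with Ccr7, a gene of mature dendritic cells, numbered 152 and 240, with 629 and 853 CPM of Ptgs2 and 218 and 404 CPM of Ptger4. Cells with Flt3, a gene of conventional dendritic cells, had 237 and 432 CPM of Ptger4, above every gated class. Cells with Prox1, a gene of lymphatic endothelium, had 668 and 616 CPM of Ptgs2 from 20 and 53 cells, and T cells by Cd3e had 15.6 and 109 CPM, both below the level outside cells.

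The genes whose levels were most like 9 of the 10 genes, all but Ptgds with its 20 UMIs, over the 12 sums (6 classes in 2 libraries) were ranked by Pearson correlation of log2(CPM + 1) among 12064 genes. Ptgis was closest to Hoxd11 (0.964), Mosmo (0.963) and Cav1 (0.961), Hpgds to Pitpnc1 (0.963), Ctsd (0.956) and Arpc3 (0.955), and Ptger3 to AC109619.1 (0.963), Cox6b2 (0.963) and Mcam (0.953). Ptgs2 was closest to Tns3 (0.944), Cnppd1 (0.913) and Lpcat2 (0.900), Ptgs1 to Enpp4 (0.931), Tbc1d9b (0.927) and Mknk2 (0.907), and Hpgd to Gucy1a1 (0.934) and Hotairm1 (0.934). Ptges was closest to Ifi205 (0.928), S1pr2 (0.923) and Lpl (0.918), Pla2g4a to Pold3 (0.921), Snx6 (0.911) and Galnt7 (0.905), and Ptger4 to Ikzf3 (0.921), Gucd1 (0.811) and Retreg1 (0.806). The 12 sums share 2 libraries and their depths, and these values rank likeness only.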

How the data were processed

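Single-cell 3′ gene expression was measured in whole-uterus suspensions of 1 control and 1 cKO pool of 3 mice each, after mincing, collagenase and DNase digestion, red cell lysis and straining, per the labels' protocols. The deposited matrices hold raw UMI counts per gene and barcode. They were made with Cell Ranger 6.1.1 on mm10, per the submitters' processing notes, while the matrices name Cell Ranger 4 per the file headers. No column of values was left unused (0).

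From these counts, cells needed at least 500 genes and at most 20% mitochondrial UMIs. No doublet caller was run: cells in which no gate gene held at least 2/3 of the gate UMIs were set aside as mixed. Counts were summed per class and library and given as CPM of the class total. Exact Poisson, conditional binomial and Clopper-Pearson intervals at 95% cover counting error only. A difference counted as past the fold at 2-fold with at least 20 UMIs over both libraries, and a count of 0 was read as allowing 3 counts. The level outside cells is that of barcodes with at most 100 UMIs. TMM factors came from edgeR 4.0.16 in R 4.3.3. Other steps used Python 3.11.15, numpy 2.4.6, scipy 1.17.1 and pandas 2.3.3. Only the ratio intervals and the 2-fold limit were tested on simulated data. Those data were stromal and epithelial class sums drawn with counting error alone, without the pooling of UMIs in single cells seen here.

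All 10 genes were named in every class. Of the 35 listed other pathway genes (34 found) those named were at least 2-fold apart with at least 50 UMIs and an interval without 1, at most 3 each way per class by the interval limit nearer to 1. The 3 most alike genes were named for each gene with at least 100 UMIs, except that 1 of those for Hpgd is not reported here. The genes, lists and splits were chosen with earlier results of these data known. Alternatives changed the gate, the cell filters, the scaling and the weighting of cells. Gene positions came from a GENCODE annotation of GRCm38, the build of mm10, and promoter windows from RefSeq on GRCm38.p6.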

Additional observations from a re-analysis of the deposited data

Results flagged for a closer look

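Differences between classes stood out 6 times because a gene was at least 2-fold higher in cKO in 1 class and at least 2-fold lower in another, each with an interval that left out 1. None of these differences was tested, since each library is a single pool. For Ptges the log2 ratios were 2.16 in epithelial cells and -1.99 in macrophages, 4.16 apart, with 22 and 19 UMIs behind the epithelial value. For Hpgds they were 2.06 in epithelial and -2.11 in stromal cells, also 4.16 apart, with 1 control stromal cell holding 54.0% of its UMIs. For Hpgd the epithelial log2 ratio of 1.03 lay 2.89 above the stromal one (-1.86) and 2.92 above the mesothelial one (-1.89), with 1 cKO epithelial cell holding 62.5% of the UMIs. The Hpgd muscle value of 1.60 lay 3.46 above the stromal and 3.50 above the mesothelial one, from 6 control and 47 cKO muscle UMIs. In both libraries the muscle and epithelial levels of Hpgd lay under those outside cells. Both sides of Ptges, the epithelial side of Hpgds and the stromal and mesothelial sides of Hpgd stayed over 2-fold under all 10 alternatives. For the epithelial sides of Ptges and Hpgds the alternative with thinned cells cannot show stability, because too few cells kept a UMI. After thinning, Ptges was seen in 1 control and 1 cKO epithelial cell, and Hpgds in 3 control cells and 1 cKO cell. The stromal side of Hpgds and the muscle side of Hpgd were lost where any gate UMI sufficed (log2 ratios of -0.96 and -1.16), and the epithelial side of Hpgd stayed over 2-fold under 5 of 10.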

How the results depend on the processing

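No paired analysis was possible because each group is 1 library. Each genotype has a single library, so none could be left out in turn. Where any gate UMI sufficed, the log2 ratio of Ptgs2 in macrophages was 0.53, of Hpgds in mast cells 0.062, of Hpgd in mesothelial cells -1.51, of Ptger4 in epithelial cells -0.38 and of Hpgd in muscle -1.16, the one pair past 2-fold as reported whose direction turned, while several smaller ratios crossed 0, and 8 gene and class pairs were over 2-fold lower against 4 as reported. Ptgs2 in macrophages was 0.63 with at least 2 gate UMIs, 0.39 without the top cell and 0.21 under TMM. Ptgis in mesothelial cells was 0.96 with no UMI of other gates and 0.89 as a mean over cells. That mean gave -1.39 for Ptges in macrophages and 0.15 for Ptger4 in epithelium, which TMM put at -0.64. Thinned to 1000 UMIs, values were 0.59 for Ptgs2 and 0.73 for Pla2g4a in macrophages, 1.24 for Ptgis and -0.78 for Ptger3 in mesothelial cells and 0.45 for Ptger4 in epithelium, and 6 pairs that still had 20 UMIs were over 2-fold higher against 12 as reported. The causes were not tested, apart from the fewer UMIs that thinning leaves. With 300 genes as the minimum 43 of 43 ratios stayed within their intervals, with thinning 19 of 40. Depth limits Ptgds everywhere and most genes in mast cells.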
